A study of Homo sapiens with 2 samples.

Results

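The ATF4 branch of the stress response and the serine synthesis genes it regulates were examined in NUGC4, a cell line from a human gastric cancer. The 10 genes were given by name and matched to the array by gene symbol. They were the stress effectors ATF4, DDIT3, TRIB3 and CHAC1, the asparagine synthetase gene ASNS, and the serine and one-carbon enzymes PHGDH, PSAT1, PSPH, SHMT2 and MTHFD2. All 10 were found, each read by 1 transcript cluster (the group of probes by which the array reads a gene), among 14526 named genes. One culture received 1 siRNA against ANO5, the gene of the membrane protein anoctamin 5, and the other a negative control siRNA. Per the labels' protocols, transfection took place 24 h after seeding, with 20 nmol/l of either siRNA and the same medium and serum for both cultures. Total RNA of each culture was read on 1 array. Each group is thus a single array of 1 cell line with 1 siRNA, so that values have no spread between cultures, no standard error and no p-value. Loss of ANO5, an action of this siRNA on other transcripts and a difference between the cultures cannot be told apart.

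In the integrated stress response, kinases that sense unfolded protein, amino acid shortage, double-stranded RNA or haem shortage phosphorylate the initiation factor eIF2. General translation then slows, while the mRNA of the transcription factor ATF4 is translated more through its upstream reading frames. ATF4 protein, paired with a C/EBP family member, induces stress genes such as DDIT3 (the factor CHOP), TRIB3 and CHAC1, and genes for amino acid uptake and synthesis. Among these are the enzymes that make serine from the glycolytic intermediate 3-phosphoglycerate and pass its carbon to the mitochondrial folate cycle. An array reads mRNA and so does not show how much ATF4 protein was made.

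Of the 10 genes, ATF4 itself, PHGDH and SHMT2 were lower by at least 2-fold in the cells given ANO5 siRNA, and 0 were higher by that much. All 5 serine and one-carbon enzymes had lower signal than in the control, by between 1.04-fold and 4.32-fold, where 45.2% of all measured genes had lower signal. The targets DDIT3, TRIB3, CHAC1 and ASNS differed by at most 0.64 on the log2 scale, in both directions. Over all 9735 measured genes, 11.3% were lower and 11.2% were higher by 2-fold or more. At 1.5-fold, 5 of the 10 genes were lower (20.1% of measured genes) and 1, DDIT3, was higher (23.2%). Measured genes are those whose mean log2 signal of both arrays was at least 6.05, the 33rd percentile.

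ATF4 and its C/EBP partner bind a composite DNA element, and the promoters that carry its letters are shown because they belong to genes that differed little, beside that of the enzyme that differed most. Promoter windows run from 250 bases before to 50 after the start of a gene and were taken from RefSeq (GRCh38.p14). Windows were found for 8 of the 10 genes, and those of PSPH and SHMT2 were not used here. The motif searched was TGATGNAA on both strands, where N is any base. It was present in windows of 2 of the 8 genes, ASNS and CHAC1, in 1 window of each. The 8 genes have 13 windows in all. By window and not by gene, 3.62% of all 35116 windows held it. One of the 2 ASNS windows (chr7:97872359-97872658, minus strand) holds it 68 bases before the start, in the promoter where a nutrient-sensing element has been described. The CHAC1 window (chr15:40953221-40953520, plus strand) holds it on the opposite strand, from 209 bases before the start. The PHGDH window (chr1:119711684-119711983, plus strand) holds only the shorter TGATGNA, on the opposite strand from 243 bases before the start, and this shorter motif is in 9.99% of windows. A match describes letters and is not a binding site, and a window without a match says nothing of the factor. Capitals mark the match.
ASNS: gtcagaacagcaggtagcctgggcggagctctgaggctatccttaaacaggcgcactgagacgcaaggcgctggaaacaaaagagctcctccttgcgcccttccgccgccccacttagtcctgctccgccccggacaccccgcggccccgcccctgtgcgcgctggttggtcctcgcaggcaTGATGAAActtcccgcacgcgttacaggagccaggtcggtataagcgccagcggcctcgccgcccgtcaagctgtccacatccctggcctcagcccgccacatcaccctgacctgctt
CHAC1: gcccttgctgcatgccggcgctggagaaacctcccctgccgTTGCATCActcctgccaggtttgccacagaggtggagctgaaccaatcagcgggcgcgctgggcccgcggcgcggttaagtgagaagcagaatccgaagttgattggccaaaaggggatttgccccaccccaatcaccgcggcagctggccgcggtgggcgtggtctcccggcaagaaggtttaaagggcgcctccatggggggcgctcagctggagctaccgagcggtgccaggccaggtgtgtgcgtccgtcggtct
PHGDH: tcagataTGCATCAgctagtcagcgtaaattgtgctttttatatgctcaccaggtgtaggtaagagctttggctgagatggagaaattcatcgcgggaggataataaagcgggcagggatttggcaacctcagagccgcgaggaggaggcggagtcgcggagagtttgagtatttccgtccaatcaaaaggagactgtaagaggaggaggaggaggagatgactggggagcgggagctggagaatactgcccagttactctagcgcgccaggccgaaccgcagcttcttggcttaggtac

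ANO5, which checks the labels, had log2 signals of 3.67 in cells given ANO5 siRNA and 6.83 in control cells, a difference of -3.16. The value in ANO5 siRNA cells lay above only 4.5% of all clusters on that array, so background may limit the fold. The arrays had medians of 7.68 (ANO5 siRNA) and 7.69 (control siRNA). Epithelial markers, fixed as 8 genes, lay between 13.76 and 17.37 in ANO5 siRNA cells and between 11.64 and 17.06 in control cells. Of these 8, 3 were higher by 2-fold or more (KRT7, CEACAM5 and KRT19) and 0 were lower, against 11.2% and 11.3% of all measured genes. Their differences ran from -0.19 to 2.12 with a median of 0.51, and 2 of the 8 lay below 0. Of 12 markers of fibroblasts, blood cells, endothelium and muscle, 8 were in the table and 4 measured. The 8 lay between 3.49 and 9.80 in ANO5 siRNA cells and between 3.68 and 10.88 in control cells, with the leukocyte marker PTPRC lowest on both arrays and lysozyme (LYZ), which gastric epithelium also makes, highest. How far the differences of the epithelial markers bear on the results below was not tested.

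**Figure D1:**
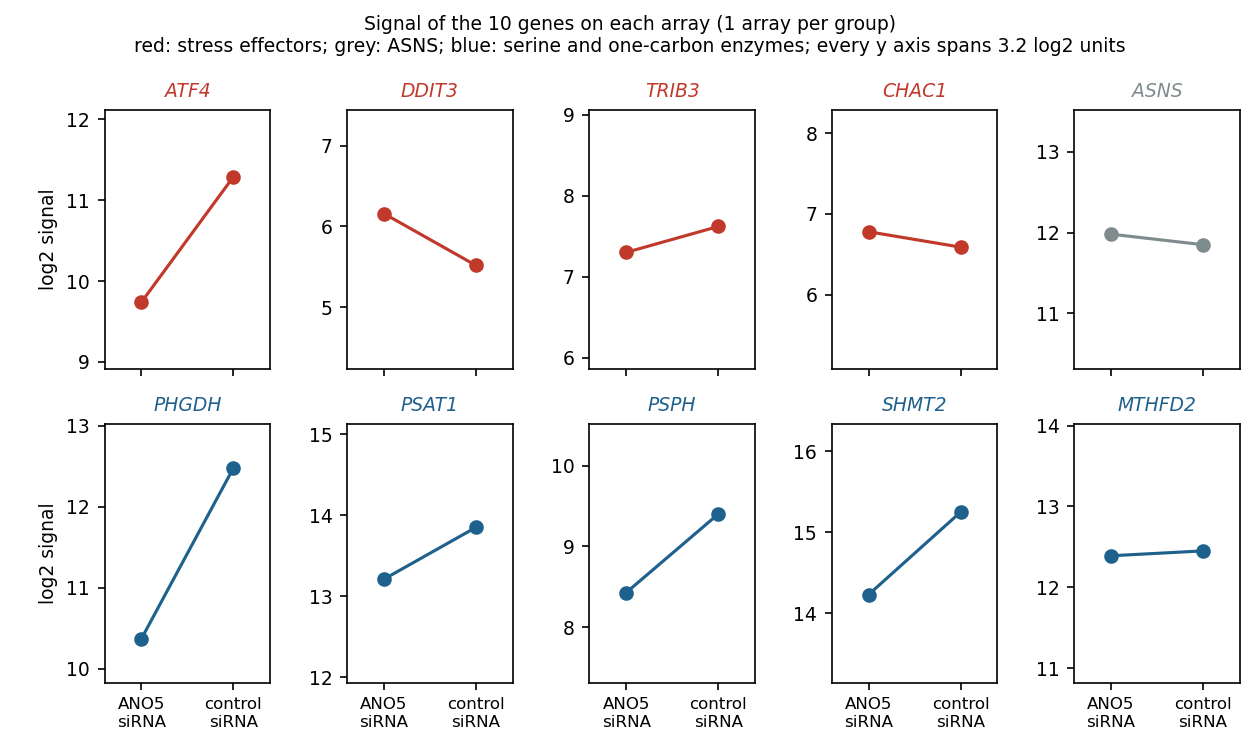
Deposited log2 signal (y axis) of each of the 10 genes in cells given ANO5 siRNA (left point) and control siRNA (right point), 1 array each; red panels are stress effectors, the grey panel is ASNS and blue panels are serine and one-carbon enzymes, and every y axis spans the same number of log2 units. The steepest lines are those of PHGDH (10.37 against 12.48) and ATF4 (9.74 against 11.29), whereas those of MTHFD2, ASNS, CHAC1 and TRIB3 are nearly flat.

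Among the stress effectors, the transcription factor gene ATF4 had a log2 signal of 9.74 in ANO5 siRNA cells and 11.29 in control cells. This is a difference of -1.55, or 2.93-fold lower. A difference at least as far below 0 was found for 558 (5.73%) of the 9735 measured genes. DDIT3 encodes CHOP, a transcription factor that promotes cell death under lasting stress, and it had signals of 6.16 in ANO5 siRNA cells and 5.52 in control cells. Its mean lay below the measured range, and its signal was close to that of olfactory receptor genes, which most tissues do not express. On the ANO5 siRNA array 104 of 105 of these receptor genes lay below it, and on the control array 95 of 105 did. The difference of 0.64 thus rests on values near background.

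TRIB3, a pseudokinase that ATF4 and CHOP induce and that restrains them, had signals of 7.30 in ANO5 siRNA cells and 7.62 in control cells. CHAC1, an enzyme that degrades glutathione, had 6.78 in ANO5 siRNA cells and 6.59 in control cells. Both stood above all 105 olfactory receptor genes on each array, so that they were read, if weakly, and their differences were -0.32 and 0.19. ASNS, which makes asparagine, had signals of 11.98 in ANO5 siRNA cells and 11.85 in control cells. Its difference of 0.13 was close to the median of all measured genes, 0.07, and became -0.005 after loess on the mean level. The 2 genes with the composite motif in their windows were thus among the 4 members with the smallest differences, as were TRIB3 and MTHFD2, which had no match.

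The serine pathway has 3 enzymes, and the first showed the greatest difference of the 10 genes. PHGDH, phosphoglycerate dehydrogenase, which draws 3-phosphoglycerate out of glycolysis, had a log2 signal of 10.37 in ANO5 siRNA cells and 12.48 in control cells. It was 4.32-fold lower (difference -2.11), and 277 measured genes (2.85%) were at or below this value. PSAT1, the aminotransferase of the second step, had signals of 13.21 in ANO5 siRNA cells and 13.85 in control cells, 1.56-fold lower. PSPH, the phosphatase that releases serine, had signals of 8.43 in ANO5 siRNA cells and 9.40 in control cells, 1.96-fold lower. The mRNA signals of all 3 steps were thus lower, the first most and the middle one least. With 1 array each, no error can be given for this order.

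Serine then enters the mitochondrial folate cycle. SHMT2, which splits it into glycine and a one-carbon unit, had a log2 signal of 14.23 in ANO5 siRNA cells and 15.25 in control cells, 2.03-fold lower. MTHFD2, the dehydrogenase and cyclohydrolase that oxidises that unit, had signals of 12.39 in ANO5 siRNA cells and 12.45 in control cells, a difference of -0.06. These consecutive enzymes therefore differed by unequal amounts, with SHMT2 just past 2-fold and MTHFD2 near no difference. PSPH, at -0.97, lay just short of that threshold and passed it after loess on the mean level (-1.05), so that PSPH and SHMT2 fall on different sides of it by a narrow margin. By name, RefSeq lists pseudogene copies of 5 of the 10 genes, namely ATF4, ASNS, PSAT1, PSPH and MTHFD2, and how far the probes share signal with them was not tested.

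Set side by side, the 4 stress effectors had differences from -1.55 to 0.64 with a median of -0.065, and the 5 enzymes from -2.11 to -0.06 with a median of -0.97. The medians differed by 0.905 on the log2 scale, with the enzymes lower. The sets overlapped. Of the 20 pairs of 1 effector and 1 enzyme, the effector had the higher difference in 15, and 4 of the 5 other pairs held ATF4. DDIT3, whose signals lay near background, stood above all 5 enzymes and is part of this count. The contrast was 0.65 over measured members alone, which leaves out DDIT3, and 1.16 without ATF4. The mRNA of ATF4 itself was lower, whereas of its 3 downstream effectors DDIT3 and CHAC1 lay above 0 and TRIB3 below. The 10 genes were chosen with earlier results of these arrays known, so these counts describe the genes and support no wider statement.

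**Figure D2:**
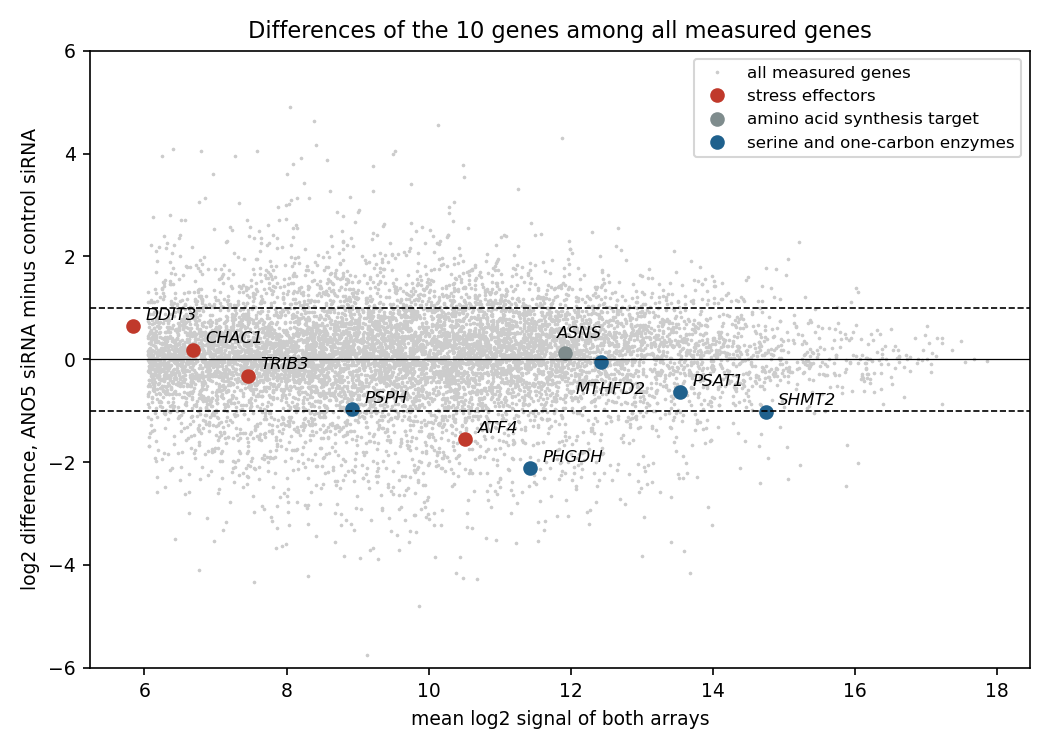
Log2 difference, ANO5 siRNA minus control siRNA (y axis), against the mean log2 signal of both arrays (x axis) for all measured genes (grey) and the 10 genes (coloured); dashed lines mark 2-fold either way. PHGDH (-2.11), ATF4 (-1.55) and SHMT2 (-1.02) lie below the lower line, and DDIT3 lies left of the measured range.

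Upstream of ATF4, mRNAs of the eIF2 module mostly lay within 2-fold, and the phosphorylation of eIF2 is not read by an array. Over all measured genes, 11.3% were lower and 11.2% higher by 2-fold or more. Of 15 measured genes of the eIF2 kinases, eIF2, its exchange factor and its phosphatases, 1 was lower and 0 higher by that much. Their median was -0.01. The exception was EIF2S3, the gamma subunit of eIF2, at 15.08 in ANO5 siRNA cells and 16.08 in control cells, which lies on the threshold itself and is not counted after centring on the medians. The bZIP factors that pair with or resemble ATF4 numbered 10 in the measured range, and all 10 lay within 2-fold (median 0.12). CEBPG, a C/EBP partner of ATF4, had the highest of these differences, 0.91.

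The list of other stress targets of ATF4 and CHOP also holds relatives of TRIB3 and CHAC1, whose own regulation by ATF4 was not examined. It went both ways, with 3 of 17 measured genes higher and 3 lower by 2-fold or more and a median of -0.07. Higher were BCL2L11, the cell death promoter BIM (11.11 in ANO5 siRNA cells and 9.03 in control cells), the secreted stress cytokine GDF15 (14.87 and 13.38 in the same order) and TRIB1, a relative of TRIB3 (11.84 and 10.52). Lower were CHAC2, the close relative of CHAC1 (7.78 in ANO5 siRNA cells and 9.95 in control cells), STC2, a secreted stress glycoprotein (10.71 and 12.34), and the death receptor gene TNFRSF10B (10.13 and 11.64). Relatives thus parted, with CHAC2 at -2.17 beside CHAC1 at 0.19, and TRIB1 at 1.32 beside TRIB3 at -0.32. The ATF6 and XBP1 branches of the unfolded protein response also showed no common direction, with a median of 0.07. Of 21 measured genes, 1 was higher and 2 lower, against 11.2% and 11.3% of all measured genes. EDEM1, which targets misfolded glycoproteins for degradation, was higher (1.79), and the secreted ER protein MANF (-3.09) and the chaperone cofactor SDF2L1 (-1.41) were lower.

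Genes of amino acid uptake, several of which ATF4 also induces, went both ways. Of 16 measured transporter genes, 4 were lower and 2 higher by 2-fold or more, against 11.3% and 11.2% of all measured genes. Their median was -0.34. SLC1A4, which carries serine and other small neutral amino acids, was at 5.77 in ANO5 siRNA cells and 7.86 in control cells. SLC7A5, the large neutral amino acid transporter, was at 11.07 in ANO5 siRNA cells and 13.13 in control cells, and SFXN1, which brings serine into mitochondria, at 12.33 and 13.46 in the same order. The value of SLC1A4 in ANO5 siRNA cells was near background, with 101 of 105 olfactory receptor genes below it. SLC1A4 was thus in the measured range only through the control array. Other carriers that take serine lay within 2-fold and went both ways. SLC38A2 was at 0.86 and SLC1A5 at 0.04, whereas SLC38A5 was at -0.87, SFXN3 at -0.41 and SLC38A1 at -0.26. In the opposite direction, SLC7A11, the cystine transporter, was at 12.76 in ANO5 siRNA cells and 10.11 in control cells (difference 2.65), and SLC7A6 was 1.07 higher on the log2 scale. After loess on the mean level 1 transporter gene was counted as higher, in place of 2.

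Beyond SHMT2 and MTHFD2, 17 folate, one-carbon and glycine genes were measured, with a median of -0.21. Of these, 5 were lower and 1 higher by 2-fold or more, against 11.3% and 11.2% of all measured genes. MTHFD1, the cytosolic counterpart that rebuilds one-carbon folates from formate, was at 11.41 in ANO5 siRNA cells and 13.76 in control cells, a difference of -2.35. FPGS, which adds glutamates to folate to retain it in the cell, differed by -2.13, and GGH, which removes them, by -1.44. The higher gene was DLD, a shared subunit of the glycine cleavage system and of ketoacid dehydrogenases (1.10), and 0 were counted as higher after loess on the mean level. De novo purine synthesis consumes glycine and one-carbon units. Its 10 measured genes had differences from -1.88 to -0.49, with a median of -1.35. By 2-fold or more, 6 were lower and 0 higher, against 11.3% and 11.2% of all measured genes. ADSS1, at 5.96 in ANO5 siRNA cells and 6.64 in control cells, was in the measured range only through the control array. PAICS was at 12.64 in ANO5 siRNA cells and 14.52 in control cells, IMPDH2, the first step towards guanine nucleotides, at 10.63 and 12.29, and GMPS at 13.07 and 14.70. The median of this list was lower than that of the 5 enzymes of serine and one-carbon metabolism (-0.97), and the difference between them was not tested.

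Among 9 measured genes of glutamate, proline and related metabolism, 2 were lower and 0 higher by 2-fold or more (median -0.17). They were GLUD1, glutamate dehydrogenase (-1.46), and PYCR1, the last step of proline synthesis (-1.22). For this list and the synthetases, the shares over all measured genes were 11.3% lower and 11.2% higher. Of 16 measured cytosolic aminoacyl-tRNA synthetase genes, many of which ATF4 induces, AARS1 (-1.06) and LARS1 (-1.04) were lower, 0 were higher and the median was -0.34. SARS1, the synthetase for serine, lay just short of the threshold on the other side (0.99), and 1 synthetase gene was counted as higher after centring on the medians. The glycolytic genes around 3-phosphoglycerate, the substrate of PHGDH, all lay within 2-fold (6 measured, median -0.20).

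Of the transcriptional regulators reported for serine enzymes, MYC was at 8.88 in ANO5 siRNA cells and 10.85 in control cells, a difference of -1.97. NFE2L2, the factor NRF2, differed by -0.16. The median of the 4 measured regulators was -0.55. By 2-fold or more, 1 was lower and 0 higher, against 11.3% and 11.2% of all measured genes. The part of MYC in the lower signal of ATF4 and of the enzymes was not tested.

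**Figure D3:**
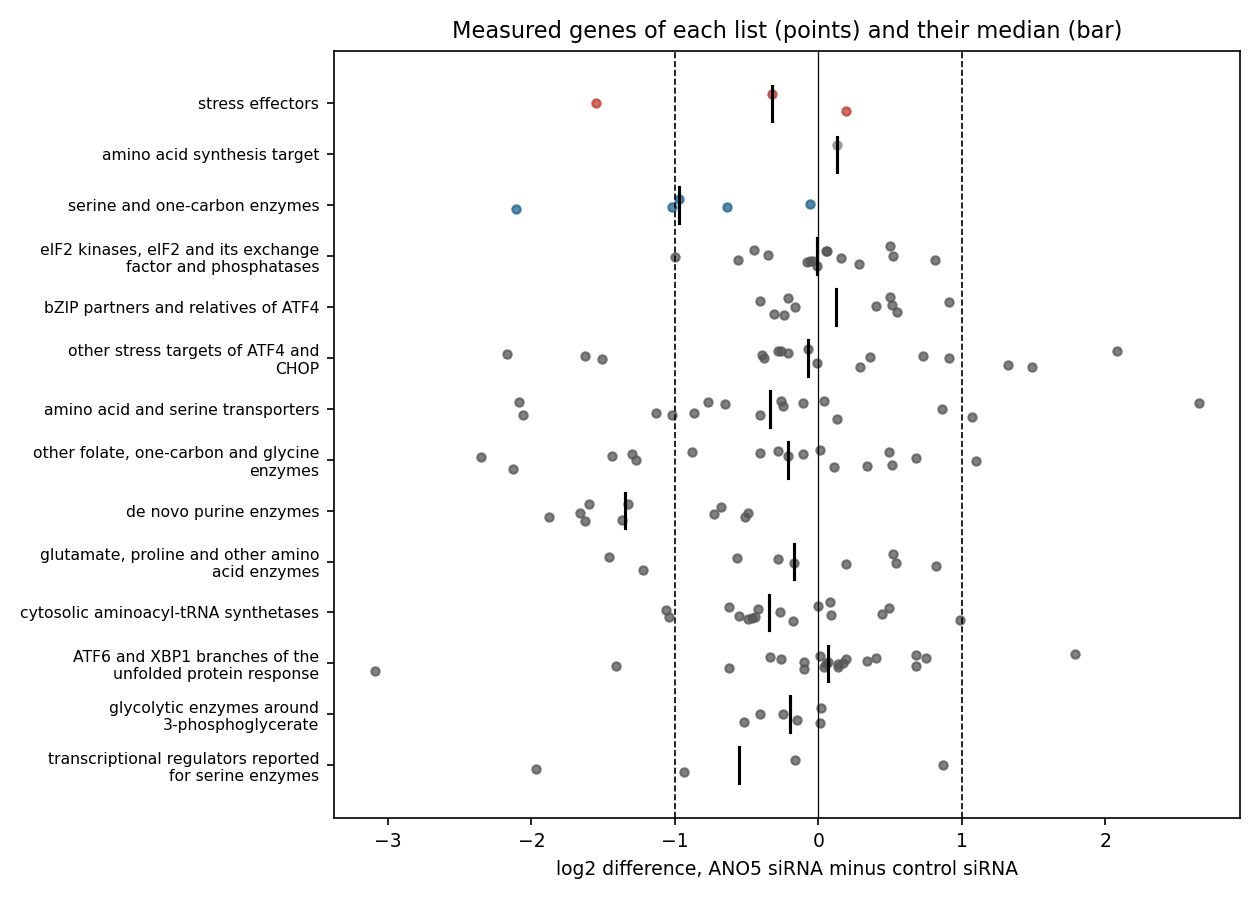
Log2 difference, ANO5 siRNA minus control siRNA (x axis), of every measured gene (points) in the sets of the 10 genes and in 11 related lists, with the median of each list (black bar) and dashed lines at 2-fold either way; points are spread vertically to be visible. The purine list (median -1.35) and the 5 serine and one-carbon enzymes (median -0.97) lie farthest to the left.

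Over all 11 related lists, 26 of 137 distinct measured genes (19%) were lower and 7 (5.11%) were higher by 2-fold or more. Among all measured genes these shares were 11.3% and 11.2%. The purine list held 6 of the 26 lower genes. The lists were chosen with earlier results of these data known, so the shares describe them and support no wider statement. Genes with the composite motif differed in both directions. Of 8134 measured genes with a promoter window, 219 held it, and of these 14.6% were lower and 11.9% higher by 2-fold or more, against 11.3% and 11.1% of the 7915 without it. The median differences were 0.04 with the motif and 0.07 without.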

How the data were processed

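The authors deposited 1 value per transcript cluster and array, with 2 decimals and a range of 2.13 to 18.15, a span from which they were taken to be log2 signal. Agilent Feature Extraction 12.0.3.1 was used, per the submitters' processing notes, which conflicts with cluster names typical of a different manufacturer. How probes were summarised, corrected for background and normalized, the log base and the build stay unknown (not given in the sources used here), and precision is limited by the number of arrays. Of the clusters, 14544 had 1 gene symbol in the platform annotation, 0 had several and 2801 had none. Where a gene had several clusters (16 genes), the one with the highest mean was kept. Values were used as deposited, and differences are ANO5 siRNA minus control siRNA. A gene was called at 2-fold, a rule of size without a test.

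The 10 genes and the lists were chosen with earlier results of these data known. The text names all 10, ANO5, up to 3 list members each way past 2-fold, MYC and NFE2L2, and at most 3 markers. CEBPG, PTPRC, LYZ, SLC38A2, SLC1A5, SLC38A5, SFXN3, SLC38A1, ADSS1 and SARS1 were singled out after their values were seen. One gene of the naming rule is not reported here. Counting was tested on simulated data. Alternatives were 4 scalings, a pseudocount of 16, cluster medians, other filters on low values, and 1.5-fold. Python 3.11.15, numpy 2.4.6, pandas 2.3.3 and statsmodels 0.14.6 were used.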

Additional observations from a re-analysis of the deposited data

How the results depend on the processing

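Across 6 alternatives (4 scalings, a pseudocount and cluster medians), 0 of 60 values of the 10 genes moved by over 0.2 on the log2 scale, and 59 stayed on their side of 2-fold; the exception was PSPH after loess. At 1.5-fold, 5 of the 10 genes were lower and 1 higher, beside 3 and 0. All measured genes came to 1961 lower (20.1%) and 2257 higher (23.2%). Of the 137 distinct measured genes of the related lists, 35 were lower, beside 26, and 18 were higher, beside 7. The contrast of effectors and enzymes (0.905) was 0.7 by means, 0.65 over measured members and, chosen after seeing the data, 1.16 without ATF4 and 0.74 without PHGDH. Its direction held under every alternative run. The ANO5 difference was -2.18 with the pseudocount, which shrinks differences of low signals. The median of the regulators was -0.94 without a filter and with the filter at the 50th percentile, and that of the bZIP factors 0.40 with the latter, which change the genes included. The shorter motif was in windows of 3 genes, beside 2. Of 198 counts of single lists, 19 moved by over 1.5 times or went to or from 0, 10 of them at 1.5-fold. No paired analysis was possible because each group holds 1 array. Genes near background, such as DDIT3, are limited by signal.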
